A study of Mus musculus with 6 samples.

Results

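The 33 genes described here encode enzymes of cholesterol and fatty acid synthesis and the proteins that regulate them. They were taken by name from a table of 34745 mouse genes, and all 33 were found and had enough counts to be tested. They were grouped as 5 regulators, 19 genes of the sterol branch and 9 genes of the fatty acid branch. The libraries were made from P19 cells. P19 is an embryonal carcinoma line of the mouse that is kept as pluripotent cells and is used to study early differentiation. RNA was sequenced from 3 control libraries, labelled as receiving no treatment, and 3 libraries labelled as treated with the peptide PDTLN1. All were grown in α-MEM medium with fetal bovine serum, the groups rest on the treatment label, and dose, duration and peptide sequence are not stated in the labels.

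Cholesterol is built from acetyl-CoA through mevalonate, isoprenoid diphosphates, squalene and lanosterol, and fatty acids are built from the same acetyl-CoA by carboxylation, chain synthesis, elongation and desaturation. Both branches are under transcription factors of the SREBP family, which are made as membrane proteins of the endoplasmic reticulum. When sterols are scarce, the escort protein SCAP carries SREBP to the Golgi, where proteases release its active part; when sterols are plentiful, INSIG proteins hold SCAP and SREBP back. Because the enzymes share this control, their messenger RNAs are widely used as a readout of the sterol state of cells. Dividing cells need both products for new membrane.

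Promoter sequences were searched for short regulatory motifs known from genes of these pathways. RefSeq sequences of build GRCm38.p6 were found for 26 of the 33 members; Fdps, Fdft1, Sqle, Stard4, Scd1, Scd2 and Fads1 had no entry. Within 250 bases before each transcription start, 4 short motifs were searched on both strands, none of which contains another. A gene with several starts counts once if any of its windows holds the motif. The sterol regulatory element was written TCACNCCAC, the CCAAT box CCAAT, the GC box GGGCGG and the E-box CACGTG. These promoters were chosen for display because Hmgcs1 was the member with a match to the sterol element, Insig1 is part of the feedback loop, Lss was 1 of 2 members with a small unadjusted p, and Elovl6 varied most between libraries. Capitals mark the motif matches, each sequence runs 5′ to 3′ on the strand of the gene, and bases inside the gene as GENCODE release M21 draws it were left out. All 4 genes lie on the plus strand.
Hmgcs1, chr13:119690101-119690350: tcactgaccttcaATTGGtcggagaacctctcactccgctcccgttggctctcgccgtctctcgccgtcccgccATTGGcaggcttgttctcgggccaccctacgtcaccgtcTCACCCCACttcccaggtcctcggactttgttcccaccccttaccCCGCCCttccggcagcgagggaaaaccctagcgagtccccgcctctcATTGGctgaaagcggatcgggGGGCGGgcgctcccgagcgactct
Insig1, chr5:28071162-28071362: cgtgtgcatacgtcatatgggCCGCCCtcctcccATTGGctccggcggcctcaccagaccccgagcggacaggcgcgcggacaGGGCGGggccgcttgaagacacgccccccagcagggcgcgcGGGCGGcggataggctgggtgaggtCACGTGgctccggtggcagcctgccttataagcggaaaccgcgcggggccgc
Lss, chr10:76531355-76531587: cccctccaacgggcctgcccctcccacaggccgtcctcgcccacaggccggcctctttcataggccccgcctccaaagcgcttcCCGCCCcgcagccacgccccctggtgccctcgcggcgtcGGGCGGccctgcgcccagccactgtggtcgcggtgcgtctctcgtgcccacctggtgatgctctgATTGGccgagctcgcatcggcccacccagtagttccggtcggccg
Elovl6, chr3:129532136-129532354: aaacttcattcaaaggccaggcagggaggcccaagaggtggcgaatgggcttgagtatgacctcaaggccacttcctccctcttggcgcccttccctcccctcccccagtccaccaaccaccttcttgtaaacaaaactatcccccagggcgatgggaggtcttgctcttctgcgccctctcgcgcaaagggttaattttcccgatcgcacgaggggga

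The Hmgcs1 sequence held 1 sterol element, which began 137 bases before the start, with 3 CCAAT boxes and 2 GC boxes. Insig1 held 1 CCAAT box, 3 GC boxes and 1 E-box, Lss held 1 CCAAT box and 2 GC boxes, and the Elovl6 sequence held none of the 4 motifs. Over the 26 members with an entry, 20 (76.9%) had a CCAAT box, against 33.8% of all 32851 promoters of that length and 41.1% of 10122 tested genes. A GC box was found in 22 members (84.6%), 32.7% of all promoters and 66.3% of tested genes. An E-box was found in 5 members (19.2%), 6.02% of all promoters and 9.94% of tested genes. The sterol element in these letters was found in 1 member (3.85%), 1.05% of all promoters and 1.23% of tested genes. A match describes letters only and does not show that a factor binds there.

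Total counts lay between 10381307 and 11663081 per library, and the 33 genes took between 0.579% and 0.626% of them. The smallest count behind any value of a member was 84, for Tm7sf2 in control library 1. Of 8 pluripotency markers 6 had enough counts to test, and their summed level was 2923 to 3042 CPM (counts scaled to a common library total) in controls and 2819 to 2974 CPM after PDTLN1; Zfp42 and Dppa5a were below 1 CPM in every library. The labels' extraction text speaks of retinas. Among 10 photoreceptor genes, Crx and Arr3 were at 0 throughout, and the list summed to 8.71 to 11.0 CPM in controls and 8.19 to 10.9 CPM after PDTLN1. Markers of liver and fat cells, tissues known for these pathways, summed to at most 3.47 and 1.34 CPM, with Cyp2e1, Cfd and Lep at 0. Blood markers summed to 16.6 to 18.9 CPM. The 5 fibroblast markers summed to 60.9 to 66.7 CPM in controls and 50.8 to 57.5 CPM after PDTLN1, ranges that did not overlap. Of these markers taken singly, the groups were apart for Thy1 and overlapped for the others. Among pluripotency markers they were apart for Utf1 (72.8 to 76.9 CPM in controls, 50.4 to 61.7 CPM after PDTLN1) and Pou5f1, both lower after PDTLN1. In CPM scaled by TMM, groups did not overlap for 9.79% of all genes tested. The part of these markers in the results was not tested. No label ties the libraries to separate cultures, so a p-value here reflects spread among these libraries alone, and that spread may be technical.

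A pair of libraries stood apart from the rest of their groups. On the first principal component of all genes outside the member and related lists, which held 34.9% of the variance, the controls lay at -17.0, 14.1 and 19.8 in order of number and the PDTLN1 libraries at 18.3, -23.5 and -11.7. The library labelled control 1 thus lay with PDTLN1 libraries 2 and 3, and the library labelled PDTLN1 1 with control libraries 2 and 3. An exchange of labels between these libraries and a difference between libraries with correct labels cannot be told apart from these files. Every fold change below follows the labels as given, and members that stood out are also given without both of them.

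All 33 genes were expressed in all 6 libraries. Levels between genes are given as the authors' FPKM, which divides counts by length and depth, as the mean of 6 libraries. Scd2, a stearoyl-CoA desaturase that puts the first double bond into saturated acyl chains, had the highest level at 213 FPKM. It was followed by the fatty acid synthase gene Fasn at 87.2 FPKM, Hmgcs1 at 75.1 FPKM, the delta-6 desaturase gene Fads2 at 74.5 FPKM and the ATP citrate lyase gene Acly at 71.2 FPKM. At the low end stood Insig2 at 3.43 FPKM, Acaca, the acetyl-CoA carboxylase that makes malonyl-CoA, at 3.09 FPKM, and Tm7sf2, a sterol C14 reductase, at 1.37 FPKM. The median was 52.6 FPKM in the fatty acid branch, 14.4 FPKM in the sterol branch and 13.3 FPKM among regulators.

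Related members differed in level. Scd2 was at 213 ± 7.51 FPKM in controls (SD, n = 3) and its neighbour Scd1, which encodes the same activity, at 44.5 ± 0.826 FPKM (SD, n = 3). Srebf2, the factor best known for the sterol branch, was at 63.8 ± 3.31 FPKM in controls, and Srebf1, best known for the fatty acid branch, at 14.1 ± 1.39 FPKM (SD, n = 3 each). Insig1, itself an SREBP target, was at 30.9 ± 1.39 FPKM and Insig2 at 3.27 ± 0.292 FPKM (SD, n = 3 each). In each of these pairs the lowest library of the first gene was above the highest library of the second. The length that counts and FPKM imply was 0.458 to 2.18 times the annotated exon length, so the order between genes depends on the length used. Per kilobase of annotated exon the same pairs stood at 213 and 44.4 CPM for Scd2 and Scd1, 44.5 and 21.8 CPM for Srebf2 and Srebf1, and 34.0 and 7.47 CPM for Insig1 and Insig2. The class medians on that scale were 37.8 CPM in the fatty acid branch, 16.4 CPM in the sterol branch and 21.8 CPM among regulators, so the order of the sterol branch and the regulators turned. Per kilobase, Fads2 was at 34.2 CPM, below Fads1 at 37.8 CPM, and Acly at 111 CPM was level with Fasn at 111 CPM.

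**Figure D1:**
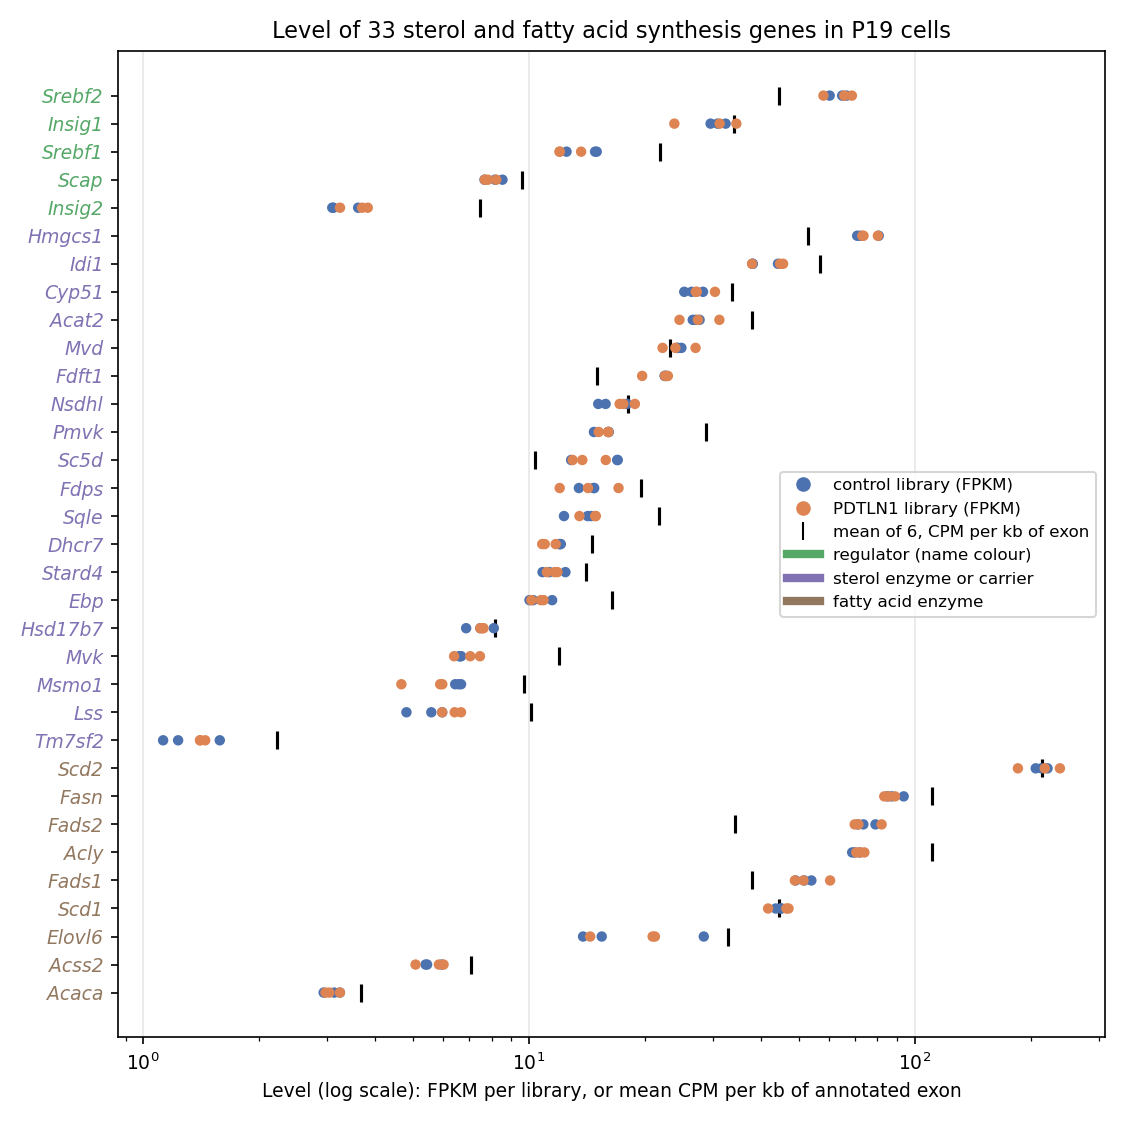
Level of each of the 33 genes on a log axis; points are the FPKM of single control and PDTLN1 libraries and black ticks the mean CPM per kilobase of annotated exon over 6 libraries. Scd2 stands highest at 213 FPKM and Tm7sf2 lowest at 1.37 FPKM, and control and PDTLN1 points lie over each other for nearly all genes.

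PDTLN1 libraries were set against controls to ask which of these genes differ with the peptide. None of the 33 members passed edgeR's quasi-likelihood test at an adjusted p under 0.05, where 3 of 13836 genes (0.0217%) did, all of them higher and none a member. DESeq2 called 0 members and 0.0723% of all genes. At an unadjusted p under 0.05 edgeR gave 2 of 33 members, Msmo1 and Lss, beside 3.99% of all genes. Of the members 18 lay above 0 and 15 below. In bulk RNA, fewer cells of a type and less RNA per cell cannot be told apart. Their median log2 fold change was 0.01, from -0.26 to 0.22, and the median over all genes tested was 0.00. In CPM scaled by TMM the groups did not overlap for 2 members, Msmo1 and Dhcr7, both lower after PDTLN1, beside 9.79% of all genes (4.81% higher and 4.98% lower).

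The intervals around these values were narrow. For 32 of 33 members the 95% interval of the fold change lay wholly within 1.5-fold in either direction, and for 27 it lay within 1.3-fold. Among 9937 genes in the members' range of mean CPM, the same was so for 89.5% and 64.8%. Those genes were not matched in level, with a median of 47.7 CPM against 84.6 CPM for the members. The part of level in this difference was not tested. Elovl6 was the member whose interval reached beyond 1.5-fold. These intervals cover the spread between the 3 libraries of each group.

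**Figure D2:**
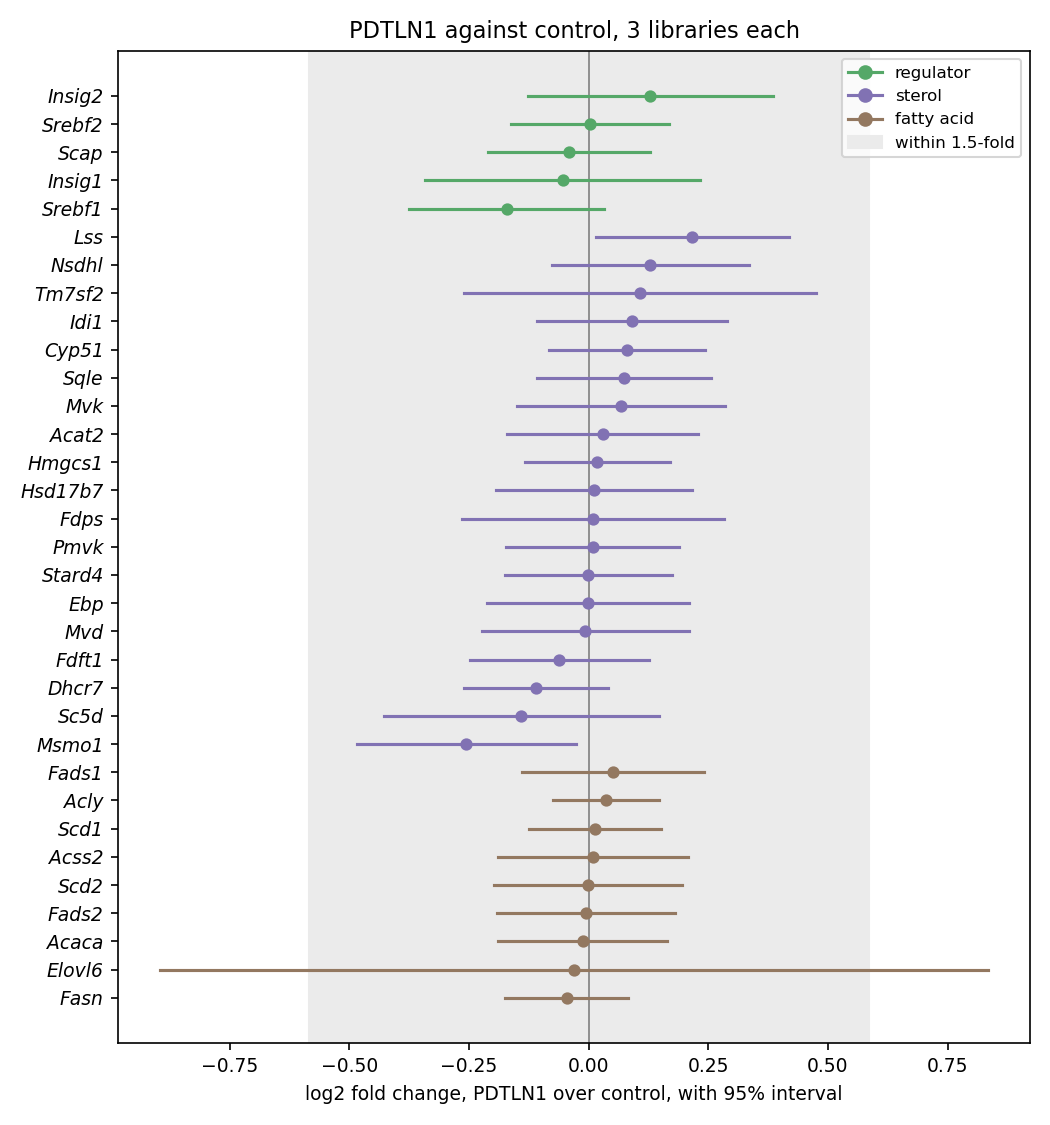
log2 fold change of PDTLN1 over control for the 33 genes (points) with 95% intervals from edgeR's quasi-likelihood fit (lines), coloured by branch; the grey band marks changes within 1.5-fold. Points lie between -0.26 and 0.22, and the interval of Elovl6, from -0.90 to 0.84, is the one that leaves the band.

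Among regulators, Srebf2 was at 301, 333 and 324 CPM in control libraries 1 to 3 and at 344, 289 and 326 CPM in PDTLN1 libraries 1 to 3. Its lowest and highest values were both PDTLN1 libraries, and its log2 fold change was 0.00 with a 95% interval from -0.16 to 0.17. Srebf1 was at 115, 138 and 137 CPM in controls and at 126, 111 and 110 CPM after PDTLN1. PDTLN1 libraries 2 and 3 lay below all controls and PDTLN1 library 1 lay among them. The log2 fold change of Srebf1 was -0.17 (SE 0.09), its interval ran from -0.37 to 0.03, and its adjusted p in edgeR was 0.989.

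Scap, the escort of SREBP, was at 68.5, 73.0 and 76.2 CPM in controls and 70.1, 73.3 and 68.2 CPM after PDTLN1, with overlapping groups. Insig1 was at 102, 112 and 107 CPM in controls and at 120, 82.3 and 107 CPM after PDTLN1. Controls were close together, while PDTLN1 library 1 was above and PDTLN1 library 2 below all of them, and the log2 fold change was -0.05 with an interval from -0.34 to 0.23. Insig2 was at 23.6, 23.4 and 27.3 CPM in controls and at 28.1, 24.5 and 28.8 CPM after PDTLN1, a log2 fold change of 0.13 (interval -0.13 to 0.38). None of the 5 regulators passed, and 2 lay above 0.

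In the sterol branch 12 of 19 members had values above 0 and 7 below. The branch's median was 0.01 on the log2 scale. Hmgcs1, which makes HMG-CoA, the substrate of the committed step, was at 261, 234 and 230 CPM in controls and 237, 238 and 258 CPM after PDTLN1. Its range after PDTLN1 lay inside that of the controls, with a log2 fold change of 0.02 (interval -0.13 to 0.17). Acat2, the cytosolic thiolase, and the mevalonate kinase, phosphomevalonate kinase and mevalonate diphosphate decarboxylase genes Mvk, Pmvk and Mvd had log2 fold changes of 0.03, 0.07, 0.01 and -0.01.

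None of the genes of the isoprenoid and squalene steps passed either. Idi1, isopentenyl diphosphate isomerase, had a log2 fold change of 0.09, the farnesyl diphosphate synthase gene Fdps one of 0.01, and Fdft1, the squalene synthase, one of -0.06. Fdps was at 76.9, 84.2 and 83.8 CPM in controls and at 97.5, 68.4 and 80.6 CPM after PDTLN1. As with Insig1, PDTLN1 library 1 was the highest and PDTLN1 library 2 the lowest of the 6. Sqle, squalene epoxidase, a rate-controlling enzyme, was at 122, 106 and 124 CPM in controls and 128, 116 and 126 CPM after PDTLN1, a log2 fold change of 0.07 (interval -0.11 to 0.26).

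Msmo1 and Lss had the smallest p-values of the members, followed by Srebf1. Msmo1 (ENSMUSG00000031604, GRCm38 chromosome 8, 64718139 to 64733792, minus strand), the sterol C4 methyl oxidase, was at 65.9, 63.7 and 65.0 CPM in controls. After PDTLN1 it was at 46.3, 58.8 and 57.8 CPM, and all 3 values lay below all controls. Its log2 fold change was -0.26 (SE 0.10, interval -0.48 to -0.03). Its p in edgeR was 0.0321 before and 0.989 after adjustment. Without PDTLN1 library 1 the log2 fold change was -0.15, and without both libraries numbered 1 it was -0.14.

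Lss (ENSMUSG00000033105, GRCm38 chromosome 10, 76531588 to 76557138, plus strand), which closes squalene epoxide into lanosterol, was at 103, 110 and 89.0 CPM in controls. After PDTLN1 it was at 119, 110 and 123 CPM, so the groups met at 110 CPM. Its log2 fold change was 0.22 (SE 0.09, interval 0.01 to 0.42), and 0.13 without control library 3 and 0.22 without both libraries numbered 1. Its p in edgeR was 0.0382 before and 0.989 after adjustment. Both genes failed the adjustment over all genes.

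Dhcr7, the last reductase before cholesterol, was at 87.8, 87.5 and 88.2 CPM in controls and at 79.2, 80.0 and 85.1 CPM after PDTLN1. The controls differed by less than 1 CPM and all PDTLN1 values lay below them, but the log2 fold change was -0.11 (interval -0.26 to 0.04, unadjusted edgeR p 0.135). Nsdhl, the sterol C4 dehydrogenase that follows Msmo1, was at 54.2, 45.7 and 47.7 CPM in controls and 53.1, 51.8 and 56.5 CPM after PDTLN1, a log2 fold change of 0.13. Cyp51, the lanosterol demethylase, was at 137, 143 and 153 CPM in controls and 165, 147 and 146 CPM after PDTLN1, a log2 fold change of 0.08.

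Sc5d, the lathosterol desaturase, was at 43.8, 57.8 and 57.5 CPM in controls and at 53.9, 44.1 and 46.5 CPM after PDTLN1. Control library 1 sat with PDTLN1 libraries 2 and 3, and PDTLN1 library 1 sat nearer the other controls; the log2 fold change was -0.14 (interval -0.43 to 0.15). Tm7sf2 was at 8.06, 8.81 and 11.3 CPM in controls and at 10.1, 10.3 and 9.99 CPM after PDTLN1, and its interval from -0.26 to 0.48 was the widest of the branch. The keto reductase gene Hsd17b7, the sterol isomerase gene Ebp and the cholesterol carrier gene Stard4 had log2 fold changes of 0.01, 0.00 and 0.00.

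In the fatty acid branch 4 of 9 members lay above 0 and 5 below, and none passed. Fasn was at 1185, 1306 and 1215 CPM in controls and 1243, 1191 and 1156 CPM after PDTLN1. The groups overlapped, with a log2 fold change of -0.05 (interval -0.17 to 0.08). Acly, which supplies cytosolic acetyl-CoA from citrate, was at 592, 565 and 573 CPM in controls and 580, 606 and 588 CPM after PDTLN1. Its log2 fold change was 0.04 with an SE of 0.05, the smallest SE among the members, and its highest library was 1.07 times its lowest. Acss2, which makes acetyl-CoA from acetate, and Acaca had log2 fold changes of 0.01 and -0.01.

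Scd2 was at 1164, 1207 and 1124 CPM in controls and at 1302, 1010 and 1180 CPM after PDTLN1. PDTLN1 libraries 1 and 2 were its highest and lowest, on either side of all controls, and the log2 fold change was 0.00 (interval -0.20 to 0.19). Scd1, the delta-5 desaturase gene Fads1, and Fads2 had log2 fold changes of 0.01, 0.05 and -0.01.

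Elovl6 (ENSMUSG00000041220, GRCm38 chromosome 3, 129532355 to 129638495, plus strand) stood apart from the other members. It encodes the elongase that takes palmitate to stearate, and it is a known SREBP target. Counts were 3278, 1824 and 1706 in the controls, in order of number, and 1653, 2698 and 2696 after PDTLN1, or 315, 171 and 153 CPM in controls and 160, 234 and 230 CPM after PDTLN1. Control library 1 was the highest, PDTLN1 libraries 2 and 3 were next, and PDTLN1 library 1 lay between control libraries 2 and 3. The highest library was 2.06 times the lowest, against 1.07 to 1.45 times for the other 32 members and a median of 1.33 over all genes tested. The coefficient of variation within groups was 32.9%, where counting alone would give 2.08%.

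The log2 fold change of Elovl6 was -0.03 (SE 0.34, adjusted p in edgeR 0.997), and its sign turned with the libraries used. It was 0.36 without control library 1, 0.13 without PDTLN1 library 1 and -0.22 without control library 3. With both libraries numbered 1 left out, control libraries 2 and 3 (171 and 153 CPM) stood below PDTLN1 libraries 2 and 3 (234 and 230 CPM). In that fit the log2 fold change was 0.52 (SE 0.07, adjusted p in edgeR 0.0223). Elovl6 was the 1 member called, beside 0.652% of all genes. Both libraries were left out because of their place on the first component of these same data, so this fit is no independent test. Leaving them out raised the share of all genes at an unadjusted edgeR p under 0.05 from 3.99% to 17.4%. With all libraries the interval of Elovl6 from -0.90 to 0.84 left the direction undetermined. Its value in control library 1 lay on the side of PDTLN1 libraries 2 and 3, though well above both. On the first component control library 1 lay between those libraries. PDTLN1 library 1 lay between control libraries 2 and 3 in Elovl6 and on the component. The fold change of Elovl6 depended on which libraries were included, and exchanged labels were not tested.

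**Figure D3:**
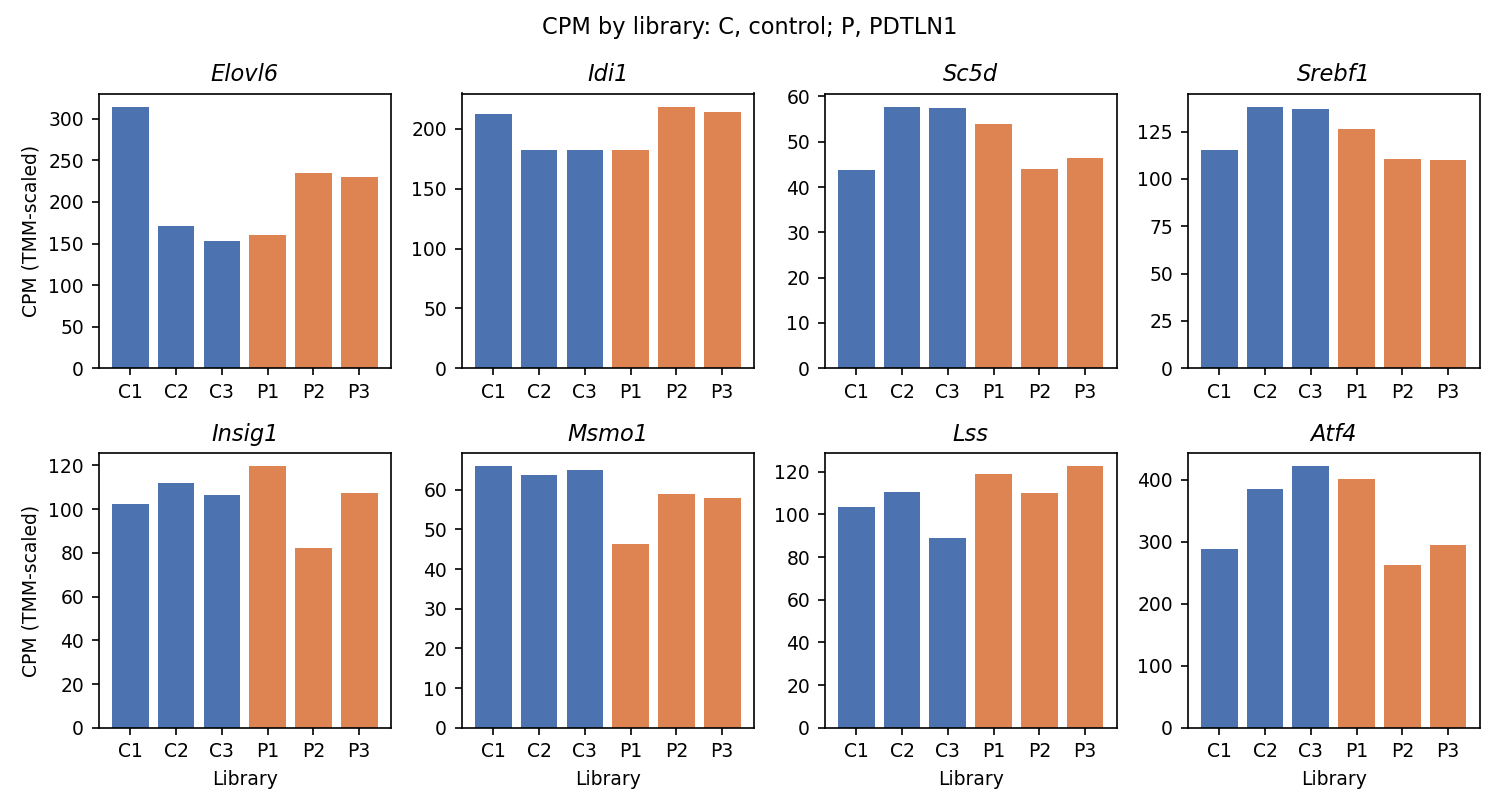
CPM of 7 members and of Atf4 in control libraries 1 to 3 (blue) and PDTLN1 libraries 1 to 3 (orange), on axes that start at 0. Elovl6 and Idi1 are higher in control library 1 and PDTLN1 libraries 2 and 3 than in the other libraries, and Sc5d, Srebf1 and Atf4 are higher in control libraries 2 and 3 and PDTLN1 library 1.

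Idi1 shared this split of the libraries, though not their exact order, with smaller differences. Idi1 was at 213 CPM in control library 1 and 219 and 214 CPM in PDTLN1 libraries 2 and 3, and at 183, 183 and 183 CPM in control libraries 2 and 3 and PDTLN1 library 1. Sc5d and Srebf1 had the opposite split, with their 3 higher values in the libraries where Idi1 was lower. By CPM, Acly and Hmgcs1 were also divided as Idi1 was. For Hmgcs1 the margin was small, 238 CPM in PDTLN1 library 2 against 237 CPM in PDTLN1 library 1. Fdps, Fasn, Acaca and Fads1 were divided as Sc5d and Srebf1 were. The share of all genes divided in these ways was not determined. By their mean levels, lists of amino acid and endoplasmic reticulum stress genes separated the same libraries. The 20 genes of the ATF4 response averaged -0.36, 0.23 and 0.46 log2 units from their own means in the controls, in order of number, and 0.46, -0.56 and -0.23 after PDTLN1. For 16 chaperone genes the averages were -0.18, 0.10 and 0.36 in controls and 0.24, -0.25 and -0.27 after PDTLN1. Atf4 itself ran from 262 to 422 CPM. The chaperone gene Hspa5 was at 796, 575 and 694 CPM in controls and 648, 782 and 744 CPM after PDTLN1. Hspa5 thus ran against the mean of its list, with its higher values where that mean was below 0. The part of these stress genes in the values of Elovl6, Idi1, Sc5d, Srebf1 and the other members divided in these ways was not tested.

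Without both libraries numbered 1, 4 of 33 members had an unadjusted edgeR p under 0.05, beside 17.4% of all genes in that fit. They were Elovl6 and Idi1, with log2 fold changes of 0.52 and 0.24, and Sc5d and Srebf1, with -0.35 and -0.32. Idi1, Sc5d and Srebf1 had adjusted p in edgeR of 0.116, 0.125 and 0.0875 there. The libraries left out were picked from these same data, so these p-values are no independent test. With that first principal component as a covariate, 0 members passed, beside 0.0578% of all genes, and 3 had an unadjusted p under 0.05 (Msmo1, Lss and Cyp51), beside 6.14% of all genes. In that fit Elovl6 had a log2 fold change of -0.22, and Idi1, Sc5d and Srebf1 had 0.02, -0.03 and -0.10.

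The sterol branch averaged between -0.04 and 0.03 log2 units around its own mean in the 6 libraries and the fatty acid branch between -0.07 and 0.06. The 5 regulators averaged -0.08, 0.05 and 0.08 in controls and 0.09, -0.13 and 0.00 after PDTLN1. They had the sign of the ATF4 list in all libraries but PDTLN1 library 3. This was not particular to them. The 9 tested genes of the LXR group, described below, averaged -0.08, 0.01 and 0.02 in controls and 0.12, -0.05 and -0.02 after PDTLN1. These had that sign in every library, and the other related groups did not. The part of the ATF4 list in these values was not tested. PDTLN1 library 1 was the highest library for 13 of the 33 members (39.4%), against 17.4% of all genes tested. PDTLN1 library 2 was the lowest for 11 (33.3%), against 21.5% of all genes. Srebf2, Insig1, Mvk, Mvd, Fdps, Fdft1, Scd2, Fads1, Fads2 and Acss2 were highest in the one and lowest in the other. The share of all genes with both was not determined. These libraries lay at 18.3 and -23.5 on the first component of other genes.

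**Figure D4:**
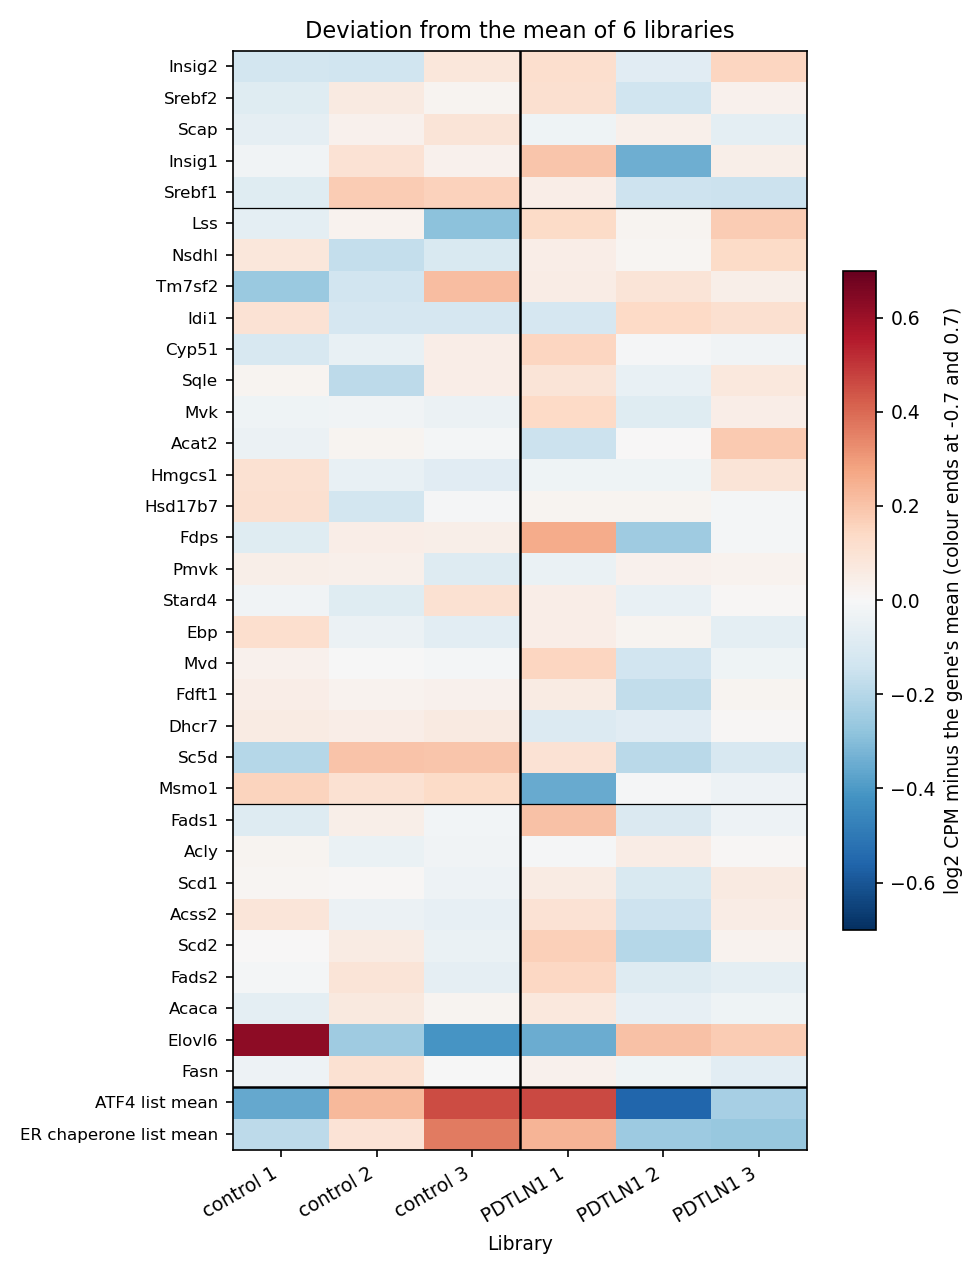
log2 CPM of each member minus its mean over 6 libraries (columns), with the means of the ATF4 and chaperone lists in the lowest rows. Elovl6 in control library 1, at 0.63, is the farthest member value, and PDTLN1 libraries 1 and 2 differ from each other in Insig1, Fdps, Scd2 and Fads1.

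Genes next to these pathways were described with a list of 78 others, of which 77 were found and 71 had enough counts to test. None of the 71 passed edgeR's or DESeq2's test in either direction, where 0.0217% and 0.0723% of all genes did. At an unadjusted edgeR p under 0.05 there was 1 of 71 (1.41%), Lpin1, beside 3.99% of all genes. Their median log2 fold change was 0.01, with 37 above 0 and 34 below. The SREBP processing and sterol sensing genes, among them the proteases Mbtps1 and Mbtps2, had log2 fold changes between -0.15 and 0.09 in all 15 cases. Medians were 0.00 for 9 genes of the LXR group, which drives sterol efflux, -0.03 for 13 genes of sterol traffic, and 0.05 for 26 genes of elongation, activation and lipogenic control. The 8 tested genes of the non-sterol branch and other sterol enzymes had a median of -0.08, with 7 below 0.

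The related genes with the smallest p and higher values were Lpin1, Acsl4, Ppara and Gramd1b. Lpin1, a phosphatidate phosphatase and SREBP target, was at 23.5, 19.6 and 20.0 CPM in controls and at 22.6, 28.5 and 25.7 CPM after PDTLN1, a log2 fold change of 0.29; its adjusted p in edgeR was 0.989. Acsl4, an acyl-CoA synthetase of long polyunsaturated chains, and Gramd1b, a sterol carrier, had log2 fold changes of 0.17 and 0.32. Ppara, a nuclear receptor of fatty acid oxidation, had counts of 4, 5 and 10 in controls and 11, 11 and 14 after PDTLN1. On the other side were Osbp and Osbpl2, oxysterol-binding proteins, Fdxr, the ferredoxin reductase of mitochondrial steroid synthesis, and Ggps1, which makes geranylgeranyl diphosphate. Their log2 fold changes were -0.13, -0.25, -0.23 and -0.13, and none passed.

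Some counts are uncertain because exons are shared and it is not known whether strand was used in counting. In GENCODE release M21, 12 members share exon bases with another gene and 5 share at least 10% of them. Fdps shares 26.7% of its exon bases with the predicted gene Gm43738 on the same strand, and Fdft1 shares 18.3% with Ctsb, the cathepsin B gene, on the opposite strand. Scap, Hmgcs1 and Tm7sf2 share 13.2%, 12.1% and 12.1% with other genes. For Elovl6 the share was 0.529%, with an antisense transcript. Scd1 and Scd2, Insig1 and Insig2, and Fads1 and Fads2 are paralogues, whose similar stretches can also exchange reads.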

How the data were processed

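The 33 members and the gene lists were chosen with earlier results of these data known. RNA was sequenced from 3 control and 3 PDTLN1 libraries of P19 cells and per the labels' protocols libraries were made with Illumina's TruSeq RNA kit. Whole-number counts per gene and FPKM values were deposited by the authors, per the file headers. Per the submitters' processing notes, Bowtie 0.12.2 and the builds mm8 and mm9 were named; the sources used here name no counter, strand setting or annotation. FPKM and counts implied 1 length per gene within 0.1% for 15678 of 15678 genes checked. FPKM was used for levels between genes and was not tested. Positions of 24 of 33 members equal those of GENCODE release M21 (GRCm38), whose positions are printed.

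Counts were fitted in edgeR 4.0.16 (R 4.3.3) over the whole table: filterByExpr kept 13836 genes, and TMM, glmQLFit (robust) and glmQLFTest were used, with p-values (two-sided) under Benjamini-Hochberg adjustment over all genes and a threshold of 0.05. The SE was taken as |log2 fold change| over √F, and 95% intervals used the fit's degrees of freedom. Deviations are in log2 CPM with a prior count of 2. Steps were tested on simulated data. Alternatives were the replicate block, leaving out libraries, a principal component as covariate, DESeq2 1.42.0, other scalings, filters and thresholds. Named were the members and, of the related genes, the 4 with the smallest p in each direction; others named to illustrate library order were chosen after their values were seen. Faxdc2 of the related list was not matched, and Ufd1 was matched by identifier.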

Additional observations from a re-analysis of the deposited data

How the results depend on the processing

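The count of members past the threshold was 0 in the fit of all libraries and in every alternative but 1: it was 1 without both libraries numbered 1, where Elovl6 was called with a log2 fold change of 0.52, against -0.03 in all libraries. The cause was not tested, and exchanged labels of these libraries cannot be told apart from a difference between libraries. The choice of libraries to leave out came from these same data, so that call is no independent test. The related genes gave 0 throughout. The members' median log2 fold change lay between -0.03 (without PDTLN1 library 1) and 0.04 (without PDTLN1 library 2) over all alternatives. Of 462 values of members under the alternatives, 66 in 19 members had the other sign than with all libraries; except for Elovl6 without both libraries numbered 1, none of these passed.

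Over all genes, 3 were called in the fit of all libraries, 2 to 13 with 1 library left out (13 without control library 1, 5 without control library 3, 8 without PDTLN1 library 1 and 6 without PDTLN1 library 2), 91 without both libraries numbered 1, 8 with the component as covariate, 10 with DESeq2 and 8 without a filter. With the replicate block 1 gene was called and 0 members, and the deviations of libraries sharing a number had correlations across genes of -0.36, -0.14 and -0.10, so the numbers were not taken as pairs. With 3 libraries a group, small changes could be missed, and the smallest change that could be called was not determined. The intervals given for each member are not limits of detection, because calls also had to pass the adjustment over all genes. The intervals of Msmo1 (-0.48 to -0.03) and Lss (0.01 to 0.42) left out 0, yet both had an adjusted p in edgeR of 0.989.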
